A study of Mus musculus with 12 samples.

Results

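Fc gamma receptors read the constant part of IgG and pass the signal on through ITAM sequences, paired tyrosine motifs that recruit a kinase once they are phosphorylated. The genes described here were 8 members of that pathway chosen by symbol: the receptors Fcgr1, Fcgr3, Fcgr4 and Fcgr2b, the shared signalling chain Fcer1g, the kinases Syk and Btk, and the phospholipase Plcg2. All 8 were found among the 21956 genes of the count table. They were measured by bulk RNA-seq of polyA RNA from brain tissue of 12 mice, 1 library a mouse and 3 mice a group.

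In the ICH groups, collagenase had been injected into the striatum to cause an intracerebral hemorrhage (ICH), and tissue next to the hematoma was taken 48 h later. Sham-operated mice gave the same tissue without the injury. All 4 groups carried floxed Fabp4 alleles. The Sham-Fabp4fl/fl and ICH-Fabp4fl/fl mice had those alleles alone. The Sham-Fabp4CKO and ICH-Fabp4CKO mice also carried the TMEM119-creERT2 driver, and tamoxifen had been given to delete Fabp4, a fatty acid-binding protein, in microglia. Whether the fl/fl mice received tamoxifen, and the age of the mice sequenced, are not given in the sources used here. The deletion was aimed at microglia only, while each library holds every cell of the dissected tissue.

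Activating receptors (Fcgr1, Fcgr3 and Fcgr4 in the mouse) have no ITAM of their own and signal through Fcer1g, the common gamma chain. Src family kinases phosphorylate that chain, Syk docks on it, and Syk in turn leads to Btk and to Plcg2, which cleaves a membrane lipid to release calcium. Fcgr2b is the inhibitory receptor: it carries an ITIM, which recruits the lipid phosphatase Inpp5d. In brain, these genes are known mainly from microglia, border macrophages and infiltrating myeloid cells.

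Library totals lay between 15650813 and 22406216 counts. Fabp4 had 46, 63 and 24 counts in the 3 ICH-Fabp4fl/fl mice and 5, 3 and 10 in the 3 ICH-Fabp4CKO mice. Sham mice had only 0 to 2, so a lower Fabp4 level could be seen after ICH alone. These are counts of whole tissue, and which cells the difference came from was not tested. Neuron markers summed to 3106.5 to 3880 CPM (counts scaled to library size by TMM) in Sham-Fabp4fl/fl and 847 to 2114 CPM in ICH-Fabp4fl/fl mice. The sums were 3325 to 3459 CPM in Sham-Fabp4CKO mice. In ICH-Fabp4CKO mice 1 to 3 they were 1335, 2857 and 1006 CPM. The part of this shift in the results below was not tested. ICH-Fabp4CKO mouse 1 had 1 read over 4 Y-linked genes, where the other 11 mice had 1302 to 2251. ICH-Fabp4CKO mice 2 and 3 differed more over all genes than any other pair of mice of 1 group, and the levels below are lowest in mouse 2 and highest in mouse 3 of that group for all 8 genes.

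The receptor genes sit in 2 places. Fcgr2b, Fcgr3, Fcgr4 and Fcer1g lie on chromosome 1, at 170958617-170976547, 171051174-171064935, 171018920-171029761 and 171229572-171234365, and Fcgr1 on chromosome 3 at 96282909-96293969 (GENCODE M21, GRCm38; the build behind the counts is not given in the sources used here). Syk is on chromosome 13, Btk on X and Plcg2 on 8. The stretches before the annotated starts of the receptor genes are shown because these genes were all higher after ICH. They are RefSeq sequences on GRCm38.p6, printed 5′ to 3′ on the gene's strand, and only bases outside annotated exons are given. Capitals mark TTCCTC, which is GAGGAA on the other strand and holds the core bound by PU.1 family factors, and in Fcgr1 also TTCNNNGAA, the spaced palindrome of STAT factors.
Fcgr1, chr3:96293970-96294119, minus strand, upstream of the gene: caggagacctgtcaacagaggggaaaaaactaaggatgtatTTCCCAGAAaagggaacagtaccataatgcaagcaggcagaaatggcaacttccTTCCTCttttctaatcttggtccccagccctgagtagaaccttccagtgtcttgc
Fcgr3, chr1:171059404-171059553, minus strand, intronic in a longer transcript: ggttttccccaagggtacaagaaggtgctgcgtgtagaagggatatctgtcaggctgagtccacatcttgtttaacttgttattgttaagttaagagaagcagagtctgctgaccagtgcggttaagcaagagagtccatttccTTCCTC
Fcgr4, chr1:171018776-171018919, plus strand, upstream of the gene: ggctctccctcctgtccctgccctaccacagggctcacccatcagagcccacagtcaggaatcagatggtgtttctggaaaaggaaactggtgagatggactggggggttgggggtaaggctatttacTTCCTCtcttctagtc
Fcgr2b, chr1:170976128-170976190, minus strand, intronic in a longer transcript: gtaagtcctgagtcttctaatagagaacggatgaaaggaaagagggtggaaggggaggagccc

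GAGGAA, searched on both strands, occurred in the 300-base windows (250 before to 50 after a start) of 5 of the 8 genes: Fcgr1, Fcgr3, Fcgr4, Btk and, at 1 of its 2 annotated starts, Syk. Counted by window, it was in 6 of the 10 windows of the 8 genes and in 28.3% of all 32851 such windows. TTCNNNGAA was found in the window of Fcgr1 alone among the 8, and in 8.30% of all windows. No letters of either kind were in the windows of Fcgr2b, Fcer1g or Plcg2. These are matches of letters, not sites of binding.

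Fcgr2b and Fcgr3 are close relatives, and the likeness bears on how their reads could be counted. Their coding sequences share an identical run of 129 bases, from base 278 of Fcgr2b and base 263 of Fcgr3, shown here because a read within it fits both genes.
Fcgr2b and Fcgr3, shared: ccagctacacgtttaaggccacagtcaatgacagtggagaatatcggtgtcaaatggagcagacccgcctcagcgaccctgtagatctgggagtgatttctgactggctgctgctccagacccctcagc
Of the 50-base words of the Fcgr2b coding sequence, 17.1% occur in Fcgr3, and 22.1% of those of Fcgr3 occur in Fcgr2b. The other pairs of Fcgr genes share runs of at most 14 bases. Estimated counts were not whole in 9 of the 12 libraries for Fcgr2b, in 2 of 12 for Fcgr3 and in none for the other 6 genes. Where the fractions came from, and how reads within the shared run were counted, was not tested.

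All 8 genes were higher after ICH than after sham surgery in fl/fl mice, with no overlap between the 3 mice of each group. The largest fold change was that of Fcgr4 and the smallest that of Plcg2. By comparison, 26.2% of the 14719 genes tested were called higher, 19.3% were called lower and 34.4% were higher with no overlap. The median log2 fold change was 3.91 for the 8 genes and 0.02 for all genes. Calls are Benjamini-Hochberg adjusted p-values under 0.05 from edgeR's quasi-likelihood test. Whether mice of a group shared a litter, a surgery day or a library batch is not given in the sources used here. These p-values take the mice as independent, and anything shared within a group cannot be told apart from the group.

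Among the activating receptors, Fcgr1, the high-affinity receptor for IgG, stood at 5.98, 4.66 and 3.82 CPM in Sham-Fabp4fl/fl mice and at 83.2, 73.6 and 59.1 CPM in ICH-Fabp4fl/fl mice. Its spread after ICH, 1.41-fold between the highest and the lowest mouse, was the narrowest of the receptors. The log2 fold change was 3.85 ± 0.22 (SE, n = 3 and 3; adjusted p = 0.00026), and it ranked 12 of all genes by p. Fcgr3, the low-affinity activating receptor, went from 24.1, 16.3 and 15.4 CPM to 275, 127 and 124 CPM, a log2 fold change of 3.19 ± 0.36 (SE, adjusted p = 0.00080). ICH-Fabp4fl/fl mouse 1 was over 2 times as high as the other mice of its group. Fcgr4, which binds IgG2 subclasses, was close to the limit of detection in sham tissue, at 23, 8 and 14 counts, and reached 814, 326 and 403 counts after ICH. In CPM these were 1.11, 0.438 and 0.723 against 57.3, 20.3 and 21.4, a log2 fold change of 5.37 ± 0.55 (SE, adjusted p = 0.00057).

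The inhibitory receptor Fcgr2b moved from 11.1, 5.15 and 4.96 CPM to 190, 149 and 107 CPM. Its log2 fold change was 4.35 ± 0.38 (SE, adjusted p = 0.00040), or 20.3-fold with a 95% confidence interval of 10.9 to 37.9. It was larger than that of Fcgr3, its neighbour in sequence, at 9.11-fold (5.06 to 16.4). Fcer1g, the chain the activating receptors signal through, went from 13.5, 7.01 and 7.75 CPM to 314, 162 and 105 CPM, a log2 fold change of 4.30 ± 0.47 (SE, adjusted p = 0.00068).

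Of the signalling enzymes, Syk went from 4.58, 4.22 and 4.91 CPM to 62.6, 47.3 and 28.6 CPM, a log2 fold change of 3.29 ± 0.28 (SE, adjusted p = 0.00038). Btk, the Tec family kinase that Syk signalling activates, was low in sham tissue at 1.64, 0.931 and 0.620 CPM and stood at 19.8, 18.6 and 13.3 CPM after ICH, a log2 fold change of 3.96 ± 0.36 (SE, adjusted p = 0.00042). Plcg2 went from 8.58, 7.07 and 5.06 CPM to 67.8, 58.9 and 35.1 CPM, a log2 fold change of 2.92 ± 0.29 (SE, adjusted p = 0.00053). ICH-Fabp4fl/fl mouse 1 was the highest of its group in all 8 genes and mouse 3 the lowest in 7, with mouse 2 slightly lower in Fcgr4. Mouse 1 also had the largest share of mitochondrial counts of all libraries, 16.3% against 7.90% to 11.9% in the others, and the part of this in the result was not tested.

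**Figure D1:**
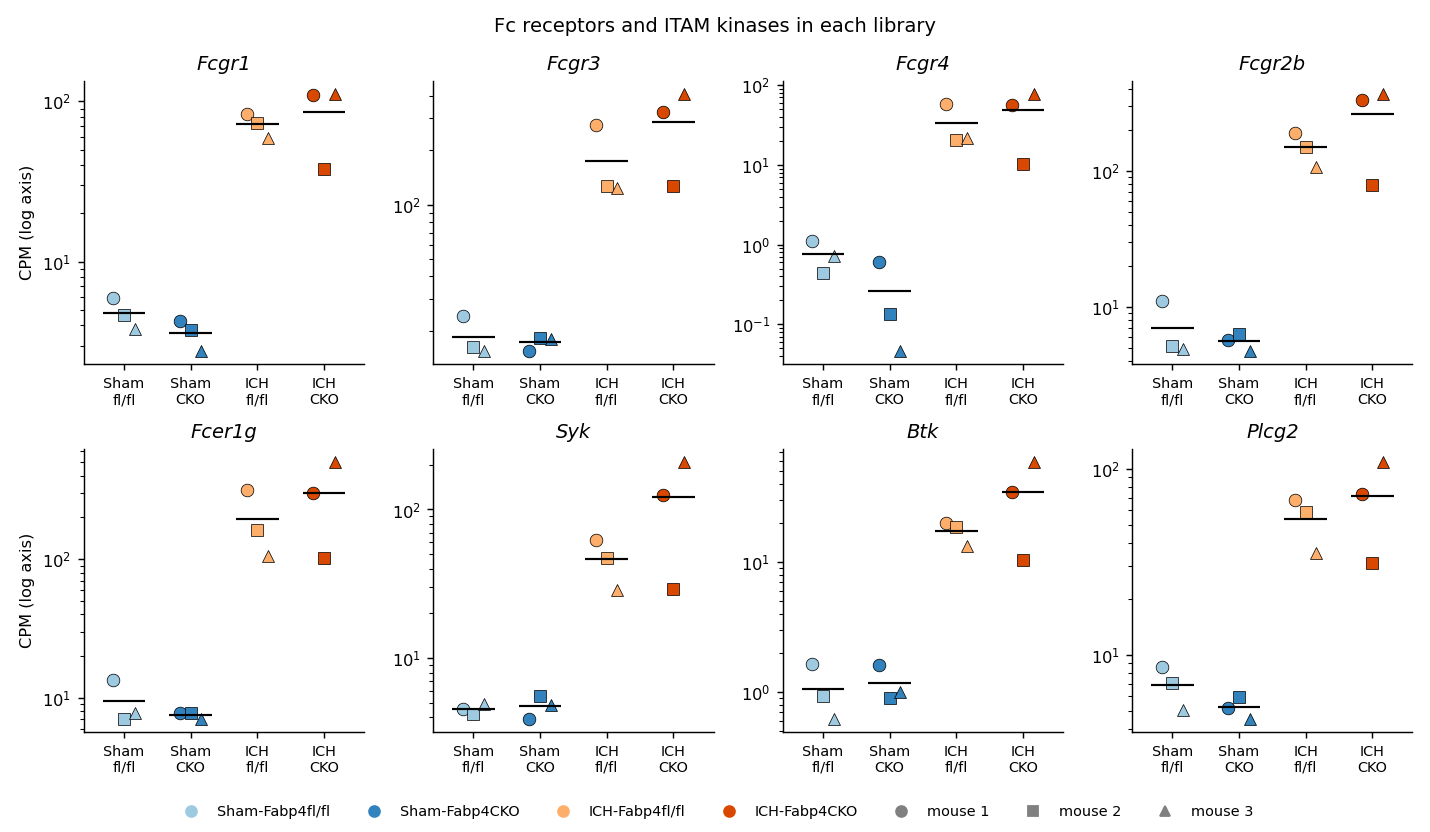
TMM-normalised CPM (log axis) of each gene in each library, by group; each point is 1 mouse, its shape the mouse number within the group, and the line is the group mean. The ICH mice sit above all sham mice in every panel, and ICH-Fabp4CKO mouse 2 (square) lies below mice 1 and 3 of its group.

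In the knockout mice the same 8 genes were again all higher after ICH than after sham surgery, with no overlap, against a background of 24.5% of 14737 genes called higher, 11.1% called lower and 33.2% higher with no overlap. The receptors and the chain stood as follows. Fcgr1 was at 4.25, 3.76 and 2.76 CPM in Sham-Fabp4CKO mice and at 110, 37.8 and 111 CPM in ICH-Fabp4CKO mice, a log2 fold change of 4.58 ± 0.49 (SE, adjusted p = 0.0054). Fcgr3 was at 15.4, 18.3 and 18.1 CPM and at 326, 127 and 410 CPM, a log2 fold change of 4.06 ± 0.46 (SE, adjusted p = 0.0055). Fcgr4 had 13, 3 and 1 counts in sham mice and 875, 191 and 1418 after ICH. Its log2 fold change, 7.50 ± 1.11 (SE, adjusted p = 0.0079), rests on those few sham counts, and the 95% confidence interval of the fold was 28.5 to 1158.

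Fcgr2b was at 5.73, 6.36 and 4.74 CPM and at 331, 79.1 and 366 CPM, a log2 fold change of 5.53 ± 0.65 (SE, adjusted p = 0.0059). For Fcer1g the values were 7.72, 7.75 and 7.08 CPM and 302, 101 and 503 CPM, a log2 fold change of 5.33 ± 0.63 (SE, adjusted p = 0.0059). The Sham-Fabp4CKO mice were close to each other in Fcer1g, with a highest value 1.09 times the lowest, while the ICH-Fabp4CKO mice spread 4.97-fold.

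Syk was at 3.88, 5.60 and 4.83 CPM and at 126, 29.1 and 209 CPM, a log2 fold change of 4.67 ± 0.74 (SE, adjusted p = 0.0093). Btk was at 1.62, 0.896 and 1.01 CPM and at 34.5, 10.3 and 58.7 CPM, a log2 fold change of 4.87 ± 0.71 (SE, adjusted p = 0.0077). Plcg2 was at 5.18, 5.96 and 4.51 CPM and at 73.2, 31.2 and 109 CPM, a log2 fold change of 3.77 ± 0.48 (SE, adjusted p = 0.0061). Syk had the widest spread of the enzymes after ICH, 7.19-fold between ICH-Fabp4CKO mouse 2 and mouse 3. Without Sham-Fabp4CKO mouse 2 or mouse 3, fits that called 5.62% and 5.03% of all genes called 5 of the 8. Fcgr4, Syk and Btk were not called there (edgeR adjusted p of 0.051 to 0.055). Without Sham-Fabp4CKO mouse 1, Syk was not (edgeR adjusted p = 0.056), in a fit that called 5.66% of all genes. Without ICH-Fabp4CKO mouse 1, the mouse with hardly any Y-linked reads, all 8 were called, as were 10.6% of all genes.

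In bulk tissue, fewer cells of a type and less RNA per cell cannot be told apart. Myeloid markers moved with the 8 genes. All 8 of the pan-myeloid markers (Itgam, Csf1r, Aif1, Spi1, Cd68, Laptm5, Ctss and Itgb2) were called higher after ICH in fl/fl mice and in knockout mice, with median log2 fold changes of 3.20 and 4.18, and their summed level went from 279 to 434 CPM in Sham-Fabp4fl/fl mice to 2126 to 3297 CPM in ICH-Fabp4fl/fl mice. In the knockout groups the sums were 276 to 322 CPM and 2129 to 7901 CPM. Of the 9 microglia markers, 8 were called higher in each genotype (median log2 fold changes of 1.70 and 2.02). All 10 monocyte and macrophage markers were called higher in each (5.65 and 7.74), and neutrophil markers in 7 of 8 tested and 8 of 10 tested. B cell markers summed to at most 5.17 CPM in any library, and mast cell and basophil markers summed to at most 1.03 CPM with Fcer1a at 0 in all 12 libraries.

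To set each gene beside the myeloid markers of its own library, its counts were divided by the summed counts of the 8 pan-myeloid markers. Markers with high counts weigh most in this sum. In ICH-Fabp4CKO mouse 3, Ctss (2599 CPM) and Cd68 (1957 CPM) were large parts of its 7901 CPM. An exact permutation test of 3 mice against 3 cannot go below p = 0.1, so these ratios are described by their values. In fl/fl mice 5 of the 8 genes, Fcgr1, Fcgr2b, Fcgr4, Fcer1g and Btk, were still higher after ICH with no overlap; of 15073 genes with counts in all 6 libraries, 2.40% were. Fcgr2b went from 25.5, 16.6 and 17.7 counts per 1000 pan-myeloid counts to 57.6, 59.1 and 50.2. Fcer1g went from 31.2, 22.6 and 27.7 to 95.1, 64.1 and 49.4. In both genes every ICH mouse stood above every sham mouse, whereas Fcgr3 overlapped, at 55.5, 52.5 and 55.1 in sham mice and 83.4, 50.2 and 58.3 after ICH. Syk (10.5, 13.6 and 17.6 against 19.0, 18.7 and 13.5) and Plcg2 (19.7, 22.8 and 18.1 against 20.6, 23.3 and 16.5) overlapped as well.

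In knockout mice 3 of the 8, Fcgr2b, Fcgr4 and Fcer1g, were higher against the pan-myeloid sum with no overlap, where 1.30% of 15023 genes were. Plcg2 was lower with no overlap, at 18.2, 18.5 and 16.3 counts per 1000 in sham mice and 14.8, 14.7 and 13.8 after ICH, as were 94.9% of genes. Fcgr3 was at 54.4, 56.9 and 65.6 in sham mice and at 65.7, 59.5 and 51.9 after ICH. Fcgr3 over the pan-myeloid markers thus overlapped between sham and ICH mice in both genotypes. With the 9 microglia markers as the reference instead, all 8 genes were higher with no overlap in each genotype, where 4.74% and 3.08% of genes were. The part of monocyte, macrophage and neutrophil markers in these ratios was not tested.

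**Figure D2:**
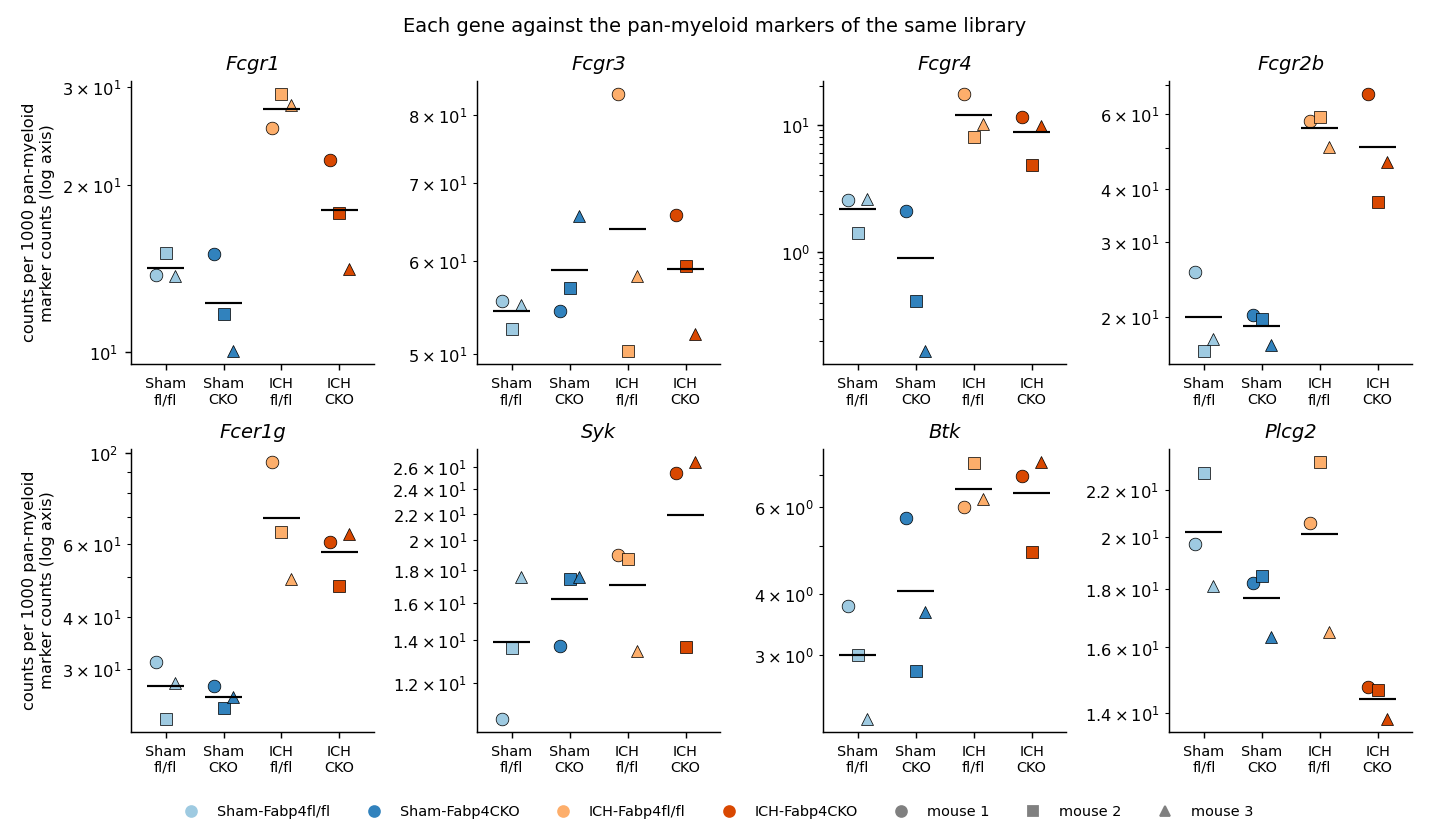
Counts of each gene per 1000 summed counts of the 8 pan-myeloid markers in the same library (log axis); points are mice and lines are group means. Fcgr2b, Fcgr4 and Fcer1g sit higher after ICH in both genotypes. Fcgr3 and Syk overlap with their sham values in both, and Plcg2 is lower after ICH in knockout mice and overlaps in fl/fl mice.

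The 4 receptors changed in their proportions. Fcgr3 made up 60.1% ± 2.7 (SD, n = 3) of the summed Fcgr counts in Sham-Fabp4fl/fl mice and 39.8% ± 5.6 (SD, n = 3) in ICH-Fabp4fl/fl mice. Fcgr2b held 26.2%, 19.4% and 19.9% in the 3 sham mice and 31.4%, 40.3% and 34.3% in the 3 ICH mice, with no overlap. Fcgr4 rose from 2.39% ± 0.66 to 7.28% ± 2.01 (SD, n = 3), and Fcgr1 was at 15.7% ± 1.7 and 17.5% ± 3.3 (SD, n = 3). The knockout groups had the same order: Fcgr3 at 64.7% ± 5.6 and 44.0% ± 5.3, Fcgr2b at 20.9% ± 2.1 and 36.4% ± 4.7, Fcgr4 at 0.986% ± 1.155 and 6.31% ± 2.07, and Fcgr1 at 13.4% ± 2.8 and 13.2% ± 1.7 (SD, n = 3 each).

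Expressed as a ratio of the 3 activating receptors to Fcgr2b within a library, the values were 2.81, 4.15 and 4.02 in Sham-Fabp4fl/fl mice and 2.19, 1.48 and 1.92 in ICH-Fabp4fl/fl mice. They were 3.54, 3.49 and 4.41 in Sham-Fabp4CKO mice and 1.48, 2.21 and 1.64 in ICH-Fabp4CKO mice. The ratio was lower after ICH in each genotype with no overlap, by 0.97 in fl/fl mice and by 1.12 in knockout mice on the log2 scale (SD within groups of 0.19 to 0.31). The 2 ICH groups overlapped and differed in their means by a log2 ratio of -0.07, and the 2 sham groups by 0.07. Fcgr3 is the largest part of the numerator and shares the printed run with Fcgr2b, and the part of that run in the ratio was not tested. Fcgr4 alone over Fcgr2b went the other way, higher after ICH by 0.91 with overlap in fl/fl mice and by 2.59 with no overlap in knockout mice. The value of 2.59 rests on 13, 3 and 1 counts of Fcgr4 in Sham-Fabp4CKO mice, whose log2 ratios had an SD of 1.75.

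**Figure D3:**
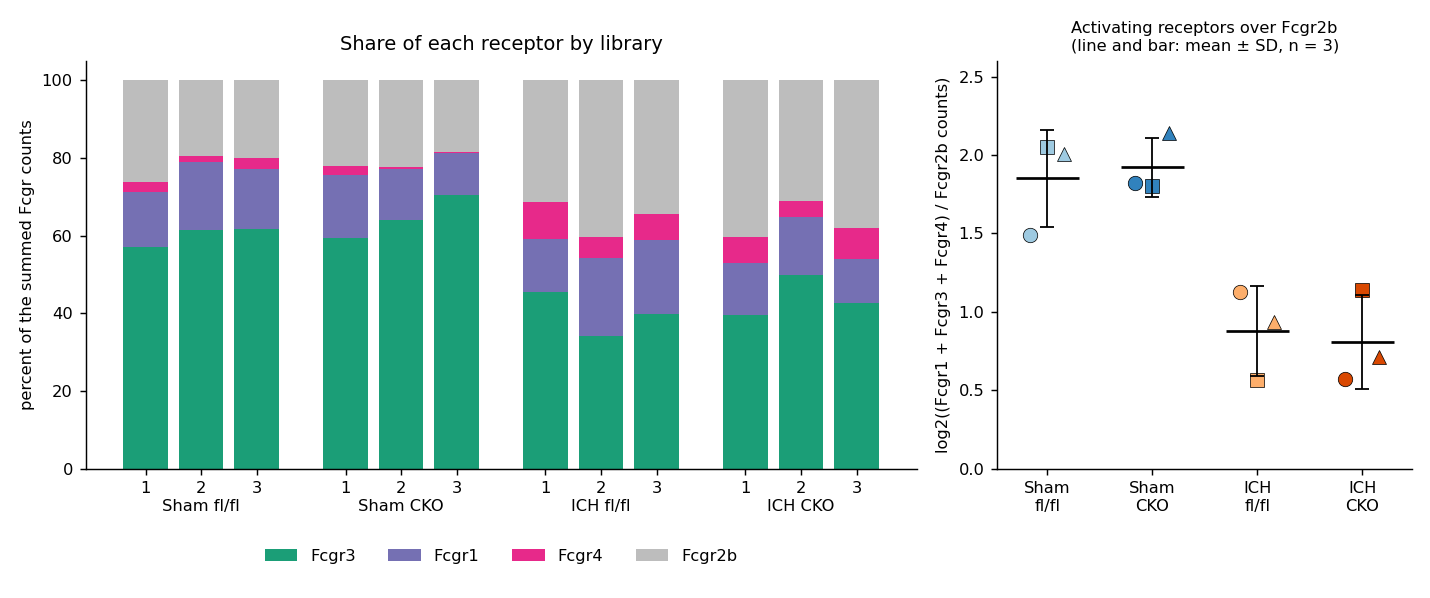
Left, percent of the summed Fcgr counts held by each receptor in each library (mice 1 to 3 of a group, stacked to 100); right, log2 ratio of activating receptor counts to Fcgr2b counts per mouse, with mean ± SD (n = 3). The grey Fcgr2b part is larger in the ICH libraries, and the log2 ratio is between 0.56 and 1.14 after ICH against 1.49 to 2.14 in sham mice.

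Per length of exon sequence, the shared chain had the highest mean of the 8 genes after ICH, but not in sham mice of both genotypes. Levels in CPM per kilobase of all annotated exons in ICH-Fabp4fl/fl mice were 221 ± 123 for Fcer1g and 101 ± 50 for Fcgr3 (SD, n = 3), then 27.8 ± 4.7 for Fcgr1, 26.3 ± 16.7 for Fcgr4 and 25.7 ± 7.2 for Fcgr2b, which did not differ beyond their spread. Plcg2 followed at 12.6 ± 3.9, and Btk (5.47 ± 1.10) and Syk (4.93 ± 1.82) were lowest and within each other's spread. In Sham-Fabp4fl/fl mice Fcer1g (10.8 ± 4.1) and Fcgr3 (10.7 ± 2.8) were level with each other, and the other 6 lay between 0.338 (Btk) and 1.86 (Fcgr1). In Sham-Fabp4CKO mice the mean of Fcgr3 (9.95 ± 0.92) was above that of Fcer1g (8.60 ± 0.43). Per kilobase of the longest coding transcript instead, Fcgr2b was at 41.9 ± 11.8 and Syk at 8.61 ± 3.17 after ICH in fl/fl mice, which moved Fcgr2b above Fcgr1 and put Syk above Btk.

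Knockout and fl/fl mice were then compared after ICH, to ask whether these genes differed where microglial Fabp4 was deleted. This comparison uses the same ICH mice as those above. None of the 8 genes was called (0% of 14600 genes were, by edgeR). At an unadjusted p under 0.05 there were 1777 genes (12.2%) and none of the 8, and DESeq2 called 578 genes and none of the 8. All 8 had a higher mean in ICH-Fabp4CKO mice, where 56.2% of all genes did, and all 8 overlapped between groups, where 8.30% of genes were higher and 11.5% lower with no overlap. Mouse 2 of the knockout group lay below or among the fl/fl mice, and mice 1 and 3 mostly above them.

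The widest difference was in Syk, with a log2 fold change of 1.46 ± 0.67 (SE, unadjusted p = 0.069 by edgeR, adjusted p = 0.44) and a 95% confidence interval of 0.902 to 8.42 for the fold. Next came Btk at 1.06 ± 0.57, Fcgr2b at 0.86 ± 0.55, Fcgr3 at 0.78 ± 0.50, Fcer1g at 0.71 ± 0.63, Fcgr4 at 0.61 ± 0.74, Plcg2 at 0.47 ± 0.46 and Fcgr1 at 0.32 ± 0.41 (log2 ± SE). The upper bounds of the fold ran from 2.46 for Fcgr1 to 8.42 for Syk and the lower bounds from 0.447 for Fcgr4 to 0.902 for Syk, so neither a doubling nor no change lies outside any of these intervals. Without ICH-Fabp4CKO mouse 2, the differences for Syk and Fcgr2b were 1.93 and 1.29, with adjusted p-values of 0.076 and 0.083. Without ICH-Fabp4CKO mouse 3, that of Syk was 0.81 (adjusted p = 0.72), and without mouse 1 it was 1.44 (adjusted p = 0.69).

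Marker levels also differed between the ICH groups, those of oligodendrocytes and endothelium in the direction opposite to the 8 genes. Oligodendrocyte markers summed to 13872 to 21104 CPM in ICH-Fabp4fl/fl mice and 5337 to 8921 CPM in ICH-Fabp4CKO mice, and endothelial markers to 307 to 668 CPM and 171 to 223 CPM. The pan-myeloid list had a median log2 fold change of 0.88 between the ICH groups and the neutrophil list one of 2.26 (10 of 10 tested above 0, none called), against 0.75 for the 8 genes and 0.06 for all genes. Over all genes 56.2% were above 0. Neutrophil markers summed to 130, 68.5 and 57.8 CPM in ICH-Fabp4fl/fl mice and 274, 79.8 and 393 CPM in ICH-Fabp4CKO mice, which overlap. Of the 10, 1 was higher with no overlap, where 8.30% of all genes were. Against the pan-myeloid sum, 7 of the 8 genes had a lower mean in ICH-Fabp4CKO mice. That sum was 3297, 2525 and 2126 CPM in ICH-Fabp4fl/fl mice and 4957, 2129 and 7901 CPM in ICH-Fabp4CKO mice. The share of all genes with a lower mean on this measure is not given here, so the count says nothing particular about the members. Fcgr1 was lower with no overlap, at 25.3, 29.1 and 27.8 counts per 1000 pan-myeloid counts in fl/fl mice and 22.1, 17.7 and 14.1 in knockout mice, and so was Plcg2, at 20.6, 23.3 and 16.5 against 14.8, 14.7 and 13.8. Of 15245 genes, 19.3% were lower with no overlap on this measure, so lower values in 2 of the 8 are not particular to them. Syk was the exception with a higher mean, at 19.0, 18.7 and 13.5 against 25.4, 13.7 and 26.5, and it overlapped. Within the pan-myeloid list, 7 of 8 markers had a log2 fold change above 0 between the ICH groups, but not all differed alike. Mean Cd68 was 383 CPM in ICH-Fabp4fl/fl and 1088.5 CPM in ICH-Fabp4CKO mice, and mean Aif1 was 34.5 and 32.2 CPM. The part of the oligodendrocyte, endothelial, myeloid and neutrophil markers in the difference between the ICH groups was not tested.

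Between the sham groups none of the 8 genes was called either, against 0.111% of 14395 genes (16 genes, all lower in knockout mice). At an unadjusted p under 0.05 there were 1471 genes (10.2%). DESeq2 called 150 genes there and none of the 8. All 8 overlapped, where 5.97% of genes were higher and 8.86% lower with no overlap. Log2 fold changes ran from -0.41 (Fcgr1) to 0.15 (Btk) in 7 of the genes. Fcgr4 stood apart with a log2 fold change of -1.52 ± 0.76 (SE, adjusted p = 0.51), on the 23, 8 and 14 counts of Sham-Fabp4fl/fl mice and the 13, 3 and 1 of Sham-Fabp4CKO mice, which overlap.

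Finally, the change after ICH was compared between genotypes as an interaction over all 12 libraries. No member passed the adjusted threshold, as 0.0199% of 15089 genes did (3 genes). At an unadjusted p under 0.05 there were 1500 genes (9.94%) and none of the 8. The differences in log2 fold change, knockout minus fl/fl, ran from 0.68 ± 0.51 for Fcgr1 to 2.08 ± 1.29 for Fcgr4 (SE), with Syk at 1.33 ± 0.77 and Fcgr2b at 1.13 ± 0.71. All 8 lay above 0, as did 52.7% of genes. Over the alternatives tried, the smallest adjusted p of any of the 8 was 0.053.

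**Figure D4:**
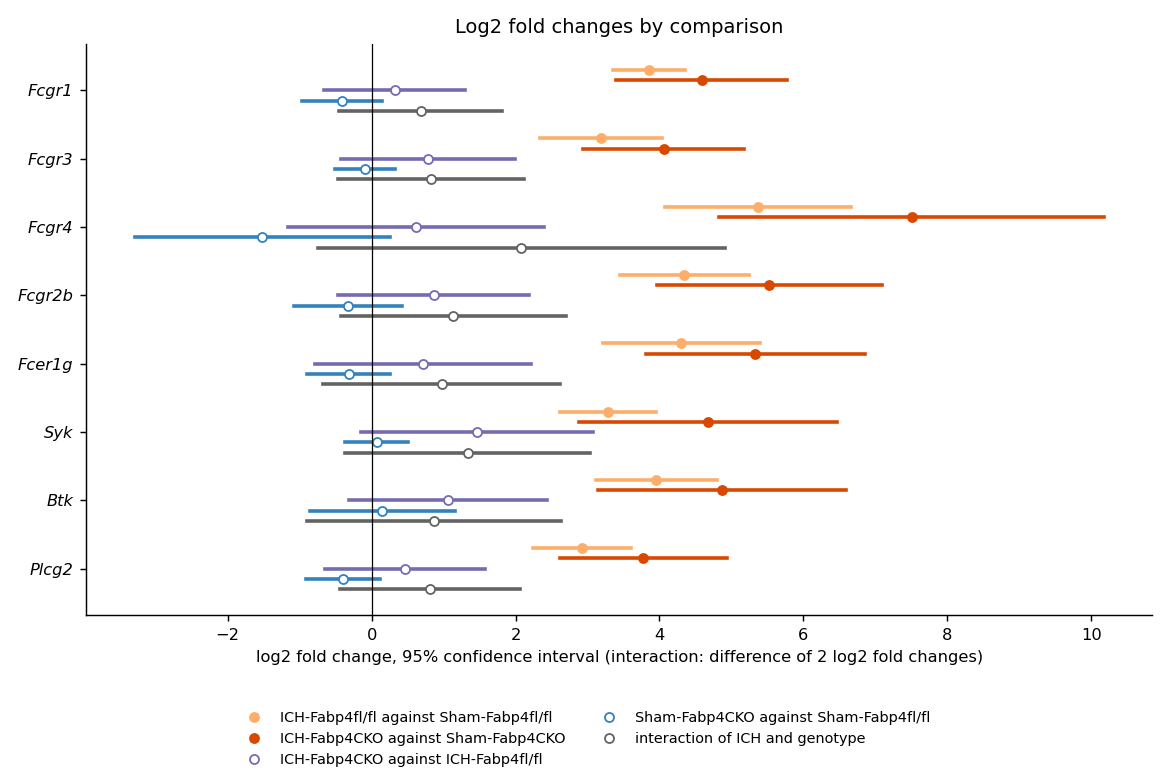
Log2 fold change of each gene in the 4 comparisons and the interaction, with 95% confidence intervals from edgeR; filled points passed the adjusted threshold. ICH against sham is filled in both genotypes for all 8 genes (2.92 to 7.50), and the genotype comparisons and the interaction are open for all 8, with intervals that include 0.

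The genes around these 8 were described from lists of other Fc receptors, ITAM adaptors, kinases, effectors, ITIM receptors and immunoglobulin genes. Of the 131 genes listed, 129 were in the table and 101 were abundant enough to test in fl/fl mice. There, 76 rose after ICH, 1 fell and 24 were not called, with a median log2 fold change of 2.77 against 0.02 over all genes. Over all genes 26.2% were called higher and 19.3% lower in this comparison. In knockout mice 84 rose, 1 fell and 22 were not called of 107 tested, with a median of 3.63, where 24.5% of all genes were called higher and 11.1% lower. The gene that fell in fl/fl mice was the kinase Src, and the one in knockout mice was Prkcb, a protein kinase C, at -1.11 ± 0.23 (log2 ± SE, adjusted p = 0.018), which stood at -1.29 ± 0.45 (adjusted p = 0.051) in fl/fl mice. The counts were less steady in knockout mice: 47, 45 and 41 pathway genes were called without Sham-Fabp4CKO mouse 1, 2 and 3. Those fits called 5.66%, 5.62% and 5.03% of all genes.

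Among other Fc receptors, all 4 tested rose in fl/fl mice. Fcrl2 had a log2 fold change of 3.70 ± 0.31 (SE, adjusted p = 0.00036) and Fcrl1 one of 3.26 ± 0.48 (adjusted p = 0.0020), both Fc receptor-like genes. Trim21, the cytosolic antibody receptor, rose by 1.81 ± 0.24 (adjusted p = 0.0014) and Fcgrt, the neonatal receptor that recycles IgG, by 1.26 ± 0.22 (adjusted p = 0.0037). In knockout mice these 4 rose as well, with log2 fold changes of 4.46, 5.63, 2.53 and 1.61 in the same order. Those of Fcrl1 rest on few sham counts, 10, 3 and 7 in Sham-Fabp4fl/fl mice and 5, 0 and 7 in Sham-Fabp4CKO mice. Fcrlb, the fifth tested there, was not called, at 2.18 ± 0.72 (SE, edgeR adjusted p = 0.057). These log2 fold changes of Trim21 and Fcgrt were below those of all 8 members in the same comparison.

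Of 16 ITAM adaptors and partner receptors tested in fl/fl mice, 13 rose. Clec4d and Clec4e, C-type lectins that signal through Fcer1g, were the largest. Clec4d had 0, 0 and 2 counts in Sham-Fabp4fl/fl mice and 488, 541 and 234 in ICH-Fabp4fl/fl mice. Clec4e also had 0, 0 and 2 counts in sham mice, and 104, 92 and 30 after ICH (edgeR adjusted p = 0.0019). Both had too few counts in sham tissue for a fold. The smallest rises were in Cd79b, a B cell receptor chain, at 3.06 ± 0.72 (log2 ± SE, adjusted p = 0.013) on 7, 0 and 9 sham counts, and Clec5a, at 2.96 ± 0.42 (adjusted p = 0.0018). Of 17 tested in knockout mice 15 rose.

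Src family kinases and their regulators gave 7 higher and 1 lower of 11 in fl/fl mice. Fgr, a myeloid Src family kinase, rose by 5.04 ± 0.71 (log2 ± SE, adjusted p = 0.0017) and Ptprc, the CD45 phosphatase that primes these kinases, by 4.31 ± 0.31 (adjusted p = 0.00031). The broadly expressed Yes1 rose by 0.98 ± 0.17 (adjusted p = 0.0039) and Src fell by 0.70 on the log2 scale (SE 0.17, adjusted p = 0.014). In knockout mice 7 of 11 rose, and Src was at -0.38 ± 0.21 (adjusted p = 0.18). Of the 5 tested relatives of Syk and Btk, Tec and Bmx rose in fl/fl mice, by 2.64 ± 0.38 (adjusted p = 0.0019) and 2.17 ± 0.41 (adjusted p = 0.0054). Bmx was at 0.62 ± 0.36 (adjusted p = 0.20) in knockout mice.

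Downstream of Syk, 27 of 38 tested adaptors and effectors rose and none fell in fl/fl mice, and 28 rose and 1 fell in knockout mice. Lat2, an adaptor of the LAT family, rose by 4.36 ± 0.56 (log2 ± SE, adjusted p = 0.0013) and Rac2, the hematopoietic Rac GTPase, by 4.35 ± 0.43 (adjusted p = 0.00052). The smallest rises were those of Itpr2, a calcium release channel, at 0.71 ± 0.14 (adjusted p = 0.0076), and Cdc42, at 0.65 ± 0.18 (adjusted p = 0.021). ITIM receptors and phosphatases, the brake on the pathway, rose in 21 of 24 in fl/fl mice and 22 of 24 in knockout mice. Cd300lf rose by 6.38 ± 0.78 (adjusted p = 0.0010), on 12, 3 and 2 counts in Sham-Fabp4fl/fl mice, and Pirb by 6.13 ± 0.39 (adjusted p = 0.00028). The smallest rises were those of Cd33 at 1.87 ± 0.26 (adjusted p = 0.0017) and Clec12a at 1.50 ± 0.38 (adjusted p = 0.016).

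The immunoglobulin list includes genes of IgG, which the receptors bind, and IgG protein was not measured here. In sham mice most immunoglobulin genes had few counts. Ighm, the IgM heavy chain, was an exception, at 278, 188 and 160 counts in Sham-Fabp4fl/fl mice. The IgA gene Igha reached 365, 837 and 1388 counts in ICH-Fabp4CKO mice. In fl/fl mice 3 of the 13 were tested and 2 rose: Igkc, the kappa light chain, by 4.44 ± 1.08 (log2 ± SE, adjusted p = 0.014), and Igha, the IgA heavy chain, by 4.28 ± 1.06 (adjusted p = 0.015). Igkc counts were 27, 330 and 175 in the 3 ICH-Fabp4fl/fl mice and 226, 490 and 732 in the 3 ICH-Fabp4CKO mice, against at most 23 in any sham mouse. Among IgG genes, Ighg2c had 1, 403 and 36 counts after ICH in fl/fl mice and 70, 134 and 218 in knockout mice. ICH-Fabp4fl/fl mouse 1 was lowest in both genes, though it was highest of its group for all 8 Fc receptor and kinase genes. In knockout mice 6 of 7 tested immunoglobulin genes rose.

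None of the pathway genes was called between genotypes in either surgery group or in the interaction by edgeR. Between the ICH groups 28 of 111 had an unadjusted p under 0.05, where 12.2% of genes did. DESeq2 called 6 of them between the ICH groups and 4 in the interaction, where it called 3.96% and 1.76% of all genes. Without Sham-Fabp4fl/fl mouse 3, 16 were called between the sham groups, in a fit that called 19.6% of all genes. Without ICH-Fabp4CKO mouse 2, 11 were called in the interaction, in a fit that called 2.42% of all genes.

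**Figure D5:**
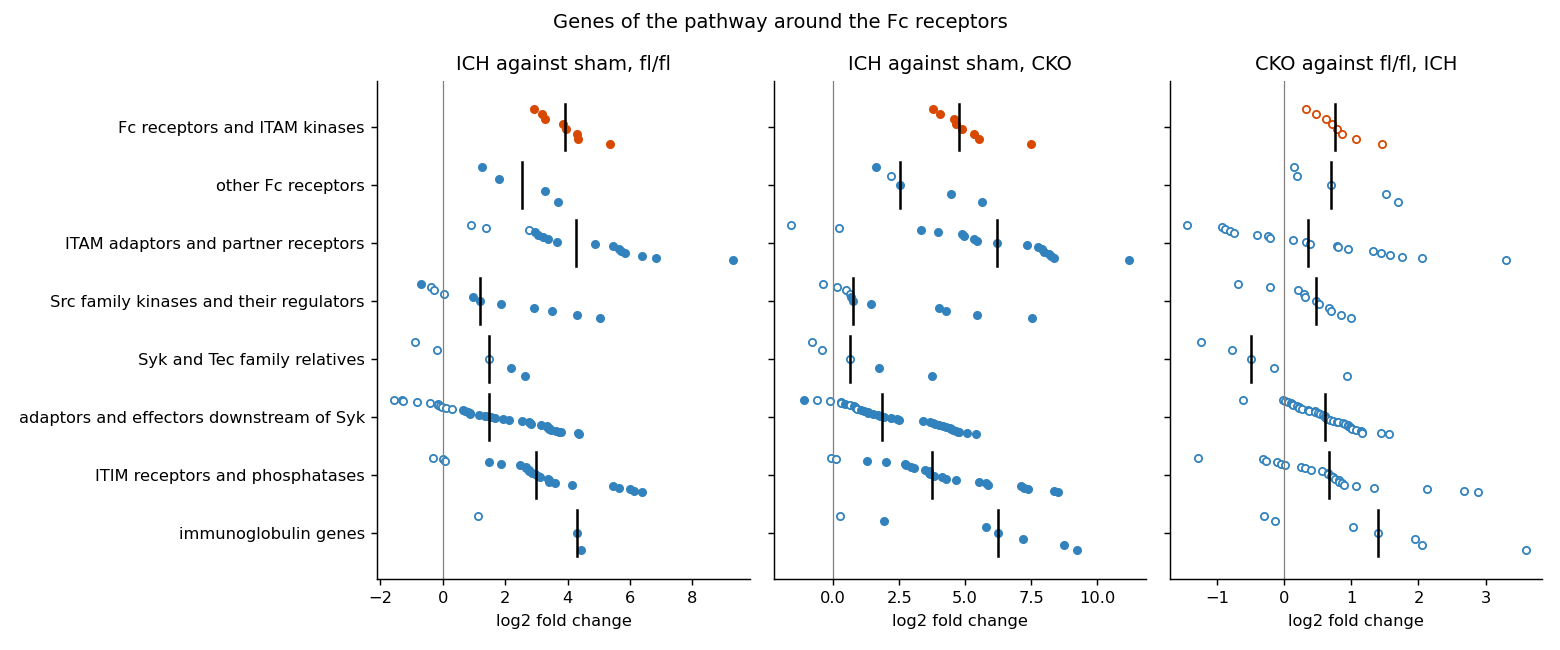
Log2 fold changes of the genes of each pathway list and of the 8 Fc receptor and ITAM kinase genes (top row) in 3 comparisons; each point is a gene, filled where it passed the adjusted threshold, and the bar is the list's median. Most points lie right of 0 and are filled for ICH against sham, and all are open for knockout against fl/fl after ICH.

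Genes with the most similar pattern to each member were found by the root mean square difference of centred log2 CPM over the 12 libraries, which share depth, group and mouse. Nearest to Fcer1g were Cyba, Itgb2 and Rab32 (0.171 to 0.221), and nearest to Fcgr3 were Laptm5, C1qb and Dnase2a (0.166 to 0.195). Fcgr2b lay closest to Itgb2, Neurl3 and Ptprc (0.206 to 0.268). Slfn2 (0.240) and Fermt3 (0.281) were among the genes nearest to Fcgr1. Plcg2 had the closest neighbours of all, Cebpa, Irf5 and Parvg (0.133 to 0.162). Arhgap30 (0.225) and Plek (0.235) were among those nearest to Syk, and Btk was nearest to Abcc3, Naip2 and Il3ra (0.232 to 0.262). Fcgr4, with its low sham counts, had only distant neighbours, Pirb, Ch25h and Cd300lf (0.563 to 0.611). Among the members themselves Fcgr2b and Fcer1g were the closest pair, at 0.247, and Plcg2 and Fcgr4 were 1.58 apart.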

How the data were processed

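Total RNA from brain tissue was enriched for polyA RNA and sequenced on an Illumina instrument, per the labels. The authors deposited estimated counts per gene, without normalisation, for 21956 genes. Between 7.36% and 8.69% of them in each library had a decimal part, and all were rounded here. The submitters' processing notes name Bowtie2 2.2.8, HISAT2, StringTie 1.3.1 and DESeq2; the counting tool, strand setting and genome build are not given in the sources used here. All sample columns were used. Groups came from the sample titles. Only the ICH-Fabp4fl/fl titles carry an extra suffix after the mouse number, and its meaning is not given in the sources used here.

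The test was the quasi-likelihood F-test of edgeR 4.0.16 under R 4.3.3 (TMM scaling, genes kept by filterByExpr at settings of 10 for min.count and 15 for min.total.count, Benjamini-Hochberg adjustment over all genes, threshold 0.05), on the 6 libraries of 2 groups or on all 12 for the interaction. CPM are TMM-scaled over 12 libraries. The SE is the log2 fold change divided by the square root of F. Ratios and shares were taken within libraries in Python 3.11.15 (numpy 2.4.6, pandas 2.3.3), with figures in matplotlib 3.10.9. The fit was tested on simulated data. Depth was 15650813 to 22406216 counts a library, so genes with a few counts, such as Fcgr4 in sham mice, are imprecise. No 2 mice of a group agreed within sampling noise.

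Alternatives were RLE scaling, total counts without TMM, DESeq2 1.42.0, no filter, at least 10 counts in every library, a replicate block, all 12 libraries in one fit, a threshold of 0.01 and leaving out each mouse. The members and lists were chosen with earlier results of these data known. Genes named were the 8 members, the 2 largest and 2 smallest called log2 fold changes of each list in ICH-Fabp4fl/fl against Sham-Fabp4fl/fl, and the 3 nearest genes of each member (some items are not reported here); Prkcb, Fcrlb, Ighg2c and the genes of the closing section were named after their values were seen. Promoter windows are from RefSeq (all 8 members matched), and gene positions, lengths and coding sequences from GENCODE M21.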

Additional observations from a re-analysis of the deposited data

How the results depend on the processing

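After ICH in fl/fl mice, all 8 members kept their direction and call under every alternative that tested them; requiring 10 counts in every library removed Fcgr4, which left 7 tested and called there and in knockout mice. In fl/fl mice, leaving out 1 mouse gave 8 members and 68 to 85 pathway genes called. Those fits called 28.0% to 54.7% of all genes. In knockout mice it gave 5 to 8 members and 41 to 102 pathway genes, in fits that called 5.03% to 67.5%. Requiring 10 counts in every library left 55 pathway genes called in knockout mice, fewer being tested, and 35.5% of all genes. Between the ICH groups DESeq2 called 6 pathway genes (Cd3g, Pag1, Cd22, Sirpa, Clec12a and Clec7a) and 3.96% of all genes. There the fit over all 12 libraries called 3 (Pag1, Cd22 and Sirpa) and 2.40% of all genes. In the interaction DESeq2 called 4 (Ptprj, Pag1, Cd22 and Clec7a) and 1.76% of all genes. Leaving out 1 mouse gave 0 pathway genes between the ICH groups, 0 to 16 between the sham groups and 0 to 11 in the interaction, and 0 members in all 3. Those fits called at most 0.0136%, 19.6% and 2.42% of all genes, in the same order. In the sham groups, small differences that were not called changed sign when 1 mouse was left out, with log2 fold changes from -0.16 to 0.597 for Btk, -0.0551 to 0.191 for Syk, -0.52 to 0.15 for Fcgr2b, -0.21 to 0.12 for Fcgr3 and -0.49 to 0.025 for Fcer1g.

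The log2 difference in the ratio of activating receptors to Fcgr2b ran from -1.15 to -0.82 in fl/fl mice and from -1.28 to -0.996 in knockout mice with 1 mouse left out, from -0.24 to 0.06 between the ICH groups and from -0.11 to 0.17 between the sham groups. With Fcgr3 alone over Fcgr2b it was -1.30 in fl/fl mice, and with Fcgr4 alone 0.91 in fl/fl mice, 2.59 in knockout mice and -1.95 between the sham groups. Against the microglia sum, 8 members did not overlap after ICH in either genotype, where 5 and 4 did not against the pan-myeloid sum, and 1 between the ICH groups, where 2 did not. With 1 mouse left out, 5 to 6, 4 to 6, 2 to 3 and 0 to 3 members did not overlap in the 4 comparisons. No overlap is reached more easily with fewer mice, and the shares of all genes in these fits are not given here. Nor is the share for the microglia sum between the ICH groups, so these counts say nothing particular about the members.

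Replicate numbers did not pair the mice: the deviations of same-numbered mice correlated at 0.02 to 0.20 in fl/fl mice and from -0.58 to 0.31 between the ICH groups. With the number as a replicate block, 8 members were called after ICH in each genotype and 0 in the other comparisons, with 81 and 80 pathway genes, and no count moved over 1.5 times. The block fits called 49.3% and 25.0% of all genes after ICH in fl/fl and knockout mice. With 3 mice a group and sham counts of 1 to 23, Fcgr4 is the least precise of the 8.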

Other observations

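Of 111 pathway genes tested between the ICH groups, 15 were higher and 4 lower in knockout mice with no overlap. Over all genes 8.30% were higher and 11.5% lower with no overlap, and edgeR on the 6 ICH libraries called none. Clec7a, Cd22 and Sirpa, described next, were picked after their values were seen and were higher in knockout mice. Cd3g went the other way, at 28, 37 and 47 counts in ICH-Fabp4fl/fl mice and 16, 9 and 16 in ICH-Fabp4CKO mice (adjusted p = 0.030 by DESeq2). Clec7a, the dectin-1 receptor with an ITAM-like motif that recruits Syk, had 104, 116 and 34 counts in ICH-Fabp4fl/fl mice and 696, 347 and 1655 in ICH-Fabp4CKO mice, a log2 fold change of 3.31 ± 0.74 (SE; adjusted p = 0.30 by edgeR, 0.00067 by DESeq2). Cd22, an ITIM receptor of the Siglec family, had 151, 106 and 116 counts and 681, 326 and 1492 (log2 fold change 2.68 ± 0.57; adjusted p = 0.30 by edgeR, 0.00072 by DESeq2). In the fit over all 12 libraries edgeR called Cd22 (adjusted p = 0.047) and not Clec7a. Sham counts were few: 44, 2 and 0 in Sham-Fabp4fl/fl mice and 0, 1 and 0 in Sham-Fabp4CKO mice for Clec7a, and 36, 12 and 10 and 4, 5 and 0 for Cd22. ICH-Fabp4CKO mouse 2 was the lowest of its group in both and still above all fl/fl mice. Sirpa, the ITIM receptor for CD47, was 1.33 ± 0.32 higher (log2 ± SE; adjusted p = 0.31 by edgeR, 0.039 by edgeR over all 12 libraries, 0.0070 by DESeq2), while its change after ICH in fl/fl mice was 0.06 ± 0.19.

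Ighg1, the IgG1 heavy chain, had 18, 11 and 8 counts in Sham-Fabp4CKO mice and 32, 21 and 59 in ICH-Fabp4CKO mice, but 0, 0 and 1 in Sham-Fabp4fl/fl mice and 0, 0 and 9 in ICH-Fabp4fl/fl mice.

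Tyrobp, the ITAM adaptor of Trem2, followed the Fc receptor chain: it was at 208, 121 and 98.3 CPM in ICH-Fabp4fl/fl mice and at 345, 126 and 544 CPM in ICH-Fabp4CKO mice, and its partner Trem2 at 178, 98.2 and 94.5 CPM and at 324, 127 and 508 CPM. The phosphatase Inpp5d, which Fcgr2b recruits, was at 123, 106 and 90.7 CPM and at 188, 86.1 and 265 CPM. In each of the 3, mouse 2 of the knockout group lay among or near the fl/fl mice and mice 1 and 3 above them.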
